A study of Mus musculus with 6 samples.

Results

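The comparison described here set keratinocytes that had lost both Sox4 and Sox11 (dcKO) against keratinocytes that had lost Sox11 alone (Sox11cKO), and so asked what differed when Sox4 was also missing from cells without Sox11. It used 4 of the 6 arrays of the series, namely the 2 dcKO and the 2 Sox11cKO arrays, and the other 2 arrays (Sox4cKO) served for reference. Each array carried RNA of knockout keratinocytes in one colour and of wild-type control keratinocytes in the other, with the dyes swapped between replicate 1 and replicate 2. The measure for each gene was the log2 ratio of knockout over wild type, and the contrast was the mean ratio of the dcKO arrays minus the mean ratio of the Sox11cKO arrays, over 20499 autosomal genes, each represented by its brightest probe. A negative contrast therefore means a lower ratio in dcKO than in Sox11cKO.

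The dcKO mice carried Krt14-Cre with both floxed genes, Sox4 fl/fl and Sox11 fl/fl, the Sox11cKO mice were Krt14-Cre with Sox11 fl/fl, and the Sox4cKO mice were Krt14-Cre with Sox4 deleted. Cre recombinase was driven by the Krt14 promoter, which is active in basal keratinocytes. The cells were primary skin keratinocytes of newborn pups, labelled 129SvEx:C57BL/6. The floxed mice had that mixed background, and the Krt14-Cre mice they were crossed to were FVB/N. Cells were first expanded on J2 feeder fibroblasts and then passaged without them. The founder floxed line also carried a Sox12 null allele, and whether these cells did is not given in the sources used here. The sources do not say whether the wild-type cultures were the same ones on all arrays.

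SOX4 and SOX11 are SoxC proteins, HMG-box transcription factors that bind related DNA sequences and are known to act redundantly in several developing tissues. They are best known from embryonic progenitor cells, where they act mainly as activators of transcription. Migrating keratinocytes rely on bundled actin and on adhesions to the matrix, and genes of both processes were among those examined.

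The targeted genes behaved as the labels state. The log2 ratio of Sox4 was 0.06 and -0.35 in the 2 Sox11cKO arrays and -2.23 and -2.81 in the 2 dcKO arrays. Both dcKO values lay below both Sox11cKO values, with a contrast of -2.38 ± 0.22 (SE) and an adjusted p of 0.0129 (limma), and the Sox4cKO arrays read -2.49 and -2.54. For Sox11 the ratios were -3.31 and -2.65 in Sox11cKO and -3.07 and -3.79 in dcKO. These overlapped, and the contrast of -0.45 ± 0.50 had an adjusted p of 0.869. Sox12, which encodes the third SoxC protein, did not rise well above background in either channel of any of the 4 arrays.

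The replicates did not share their ratios equally well. Over all probes the Pearson correlation between replicates was 0.483 for dcKO, 0.157 for Sox4cKO and -0.0495 for Sox11cKO. Between 35.1% and 45% of the probes were well above background in a channel. All 12 keratinocyte markers were above background in both channels of each of the 4 arrays, with a mean log2 signal of 12.56 to 13.36. Of the 14 fibroblast markers 2 to 3 were above background, of the 8 melanocyte markers 2 to 4, of the 10 immune markers 4 to 5, of the 5 endothelial markers 2, and of the 3 Merkel cell markers 0 to 1, and no marker of any list met the thresholds below. In RNA of whole cultures, fewer cells of a type and less RNA per cell cannot be told apart.

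A gene was called when the contrast exceeded 1.5 on the log2 scale and the adjusted p was under 0.05 (limma, Benjamini-Hochberg over 55681 probes), which are the thresholds of the study. Over all probes 250 were called, or 0.449%. Of the 20499 genes 156 were called, or 0.761%, and 82 of them were higher (0.4%) and 74 lower (0.361%) in dcKO. The ratios of the 2 genotypes did not overlap in any of these 156 genes (38.2% of all genes). The call uses the same 4 ratios, so this is no separate support for it. The median contrast over all genes was -0.01, with quartiles at -0.25 and 0.21. With a larger background offset of 50, or from the scanner software's own processed signals, no gene was called (limma, 3471 and 2636 genes at an unadjusted p under 0.05), although all 156 genes kept their direction. Under median centring in place of loess the calls were 98 higher and 491 lower. The number of called genes rose when either Sox11cKO array was left out and fell when either dcKO array was left out. Counts of called list members given below for such settings move with it. Without dcKO replicate 1 and without dcKO replicate 2, 31 and 15 of the 156 genes remained called. Akap12, Bst1, Hspb8, Krt18, Nat8l, Orm1, Orm2, Plagl1, Pycard, Rnf130, Serpina3f, Serpina3i and Vnn1 remained called without any 1 of the 4 arrays, and each other called gene named with its values lost its call without at least 1 of them.

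**Figure D1:**
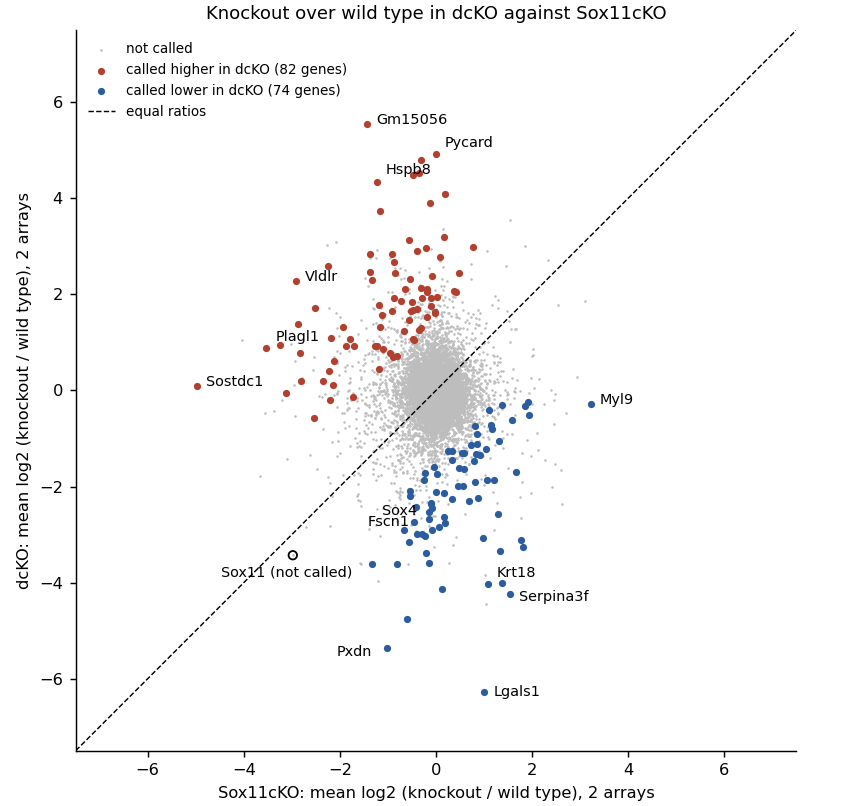
Mean log2 ratio of knockout over wild type in the 2 Sox11cKO arrays (x axis) against the 2 dcKO arrays (y axis), 1 point per autosomal gene, with called genes coloured by direction. Points above the diagonal were higher in dcKO. The 82 higher genes lie above it and the 74 lower genes below, among them Sox4 at a contrast of -2.38, while Sox11 lies low on both axes.

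The called genes fell into several patterns, taking a ratio as moved where both arrays of a genotype were beyond 1 on the log2 scale in the same direction. The ratio of dcKO alone had moved in 46 of the 82 higher genes and in 53 of the 74 lower genes, with Sox11cKO within that range. In 18 of the higher and 8 of the lower genes the Sox11cKO ratio had moved and the dcKO ratio had not. Both had moved, in opposite directions, in 7 higher genes (Hspb8, Vldlr, Ppp2r2c, Rnf130, Mdfic, Nat8l and Aldh1l2) and in 4 lower genes (Acvrl1, Gng2, Serpina3f and Serpina3i). Only Tuba1a, an alpha-tubulin whose probe may share signal with its close paralogs, was lowered in both and further in dcKO. In the remaining 11 higher and 8 lower genes neither genotype had moved in both of its arrays.

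Among the 25 genes that the study lists as direct positive SoxC targets, 6 were called, and all 6 were lower in dcKO (0.361% of all genes were called lower). The list was drawn up partly on these arrays, so it is not independent evidence of a direction. The median contrast of its members was -1.72, and in 20 of the 25 both dcKO ratios lay below both Sox11cKO ratios (20.1% of all genes). The share of all genes includes dim genes, whereas all 25 were well above background in a channel. Without Sox11cKO replicate 1 or 2 there were 14 and 10 called members, and without dcKO replicate 1 or 2 there were 2 and 1, all lower. Calls over all genes rose and fell in the same settings. The 6 genes called with all arrays were Lgals1, Gng2, Pxdn, Fblim1, Ror2 and Fscn1. Of the 4 listed negative targets, 1 was called, Camta1, higher in dcKO, and their median contrast was 1.86.

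Fscn1 encodes fascin, which bundles actin filaments in filopodia. Its log2 ratio was -0.65 and 0.08 in Sox11cKO and -2.48 and -3.48 in dcKO. The contrast was -2.69 ± 0.38 with an adjusted p of 0.0416 (limma), and the Sox4cKO arrays read 0.54 and 0.07. Fscn1 was thus near the wild-type level in both single knockouts and below it in both dcKO arrays. Fblim1 encodes migfilin, a filamin-binding protein of cell adhesions. Its ratio was 0.56 and -0.44 in Sox11cKO against -2.54 and -3.16 in dcKO, a contrast of -2.91 ± 0.25 with an adjusted p of 0.0103 (limma). In both genes the knockout channels differed more (-2.21 and -2.61) than the wild-type channels (0.48 and 0.30). Either call was lost without either dcKO array, with an adjusted p of 0.0836 and 0.261 for Fscn1 and 0.0614 and 0.055 for Fblim1 (limma).

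Tead2, a TEA-domain transcription factor known as a SoxC target from other cells, had a ratio of -0.15 and -0.06 in Sox11cKO and -1.90 and -2.79 in dcKO. The contrast was -2.24 ± 0.33, with an adjusted p of 0.0461 (limma). Of the other known targets, Tubb3 and Prox1 were not called, with contrasts of 0.13 and -0.19, and Prox1 was not well above background. Tead2 was the 1 called gene of the 3 measured.

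Fblim1, Fscn1 and Tead2, which fell in dcKO, are shown with the sequence around a start site because that window holds the letters AACAAAG. These letters are a known SOX-family core motif, and the window runs from 250 bases before to 50 bases after that start. Holding the motif was thus a condition of being shown. Agpat4 and Fam111a were the other lower genes with it. It was found in no promoter of the other called listed positive targets, Lgals1, Gng2, Pxdn and Ror2, and Lgals1 had no promoter to search. A gene can have several start sites, and windows of the shown genes without the motif were left out. Other promoters of these genes may therefore lack it. Camta1, a calmodulin-binding transcription activator and the called negative target, is shown for comparison. It was likewise among the higher genes with the motif, with Duox1, Eml1 and Klra7. Sequences are from RefSeq on build GRCm38.p6, written 5′ to 3′ on the strand of the gene, with the motif in capitals (its complement, CTTTGTT, in Camta1). The windows are chr4:141599949-141600248 for Fblim1 (minus strand), chr5:142960105-142960404 for Fscn1 (plus strand), chr7:45215542-45215841 for Tead2 (plus strand) and chr4:151861719-151862018 for Camta1 (minus strand).
Fblim1: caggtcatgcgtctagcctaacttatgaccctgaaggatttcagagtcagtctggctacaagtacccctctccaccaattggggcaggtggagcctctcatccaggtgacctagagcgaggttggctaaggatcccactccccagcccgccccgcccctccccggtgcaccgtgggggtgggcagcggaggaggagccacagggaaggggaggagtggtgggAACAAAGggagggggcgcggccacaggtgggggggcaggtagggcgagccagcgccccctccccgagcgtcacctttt
Fscn1: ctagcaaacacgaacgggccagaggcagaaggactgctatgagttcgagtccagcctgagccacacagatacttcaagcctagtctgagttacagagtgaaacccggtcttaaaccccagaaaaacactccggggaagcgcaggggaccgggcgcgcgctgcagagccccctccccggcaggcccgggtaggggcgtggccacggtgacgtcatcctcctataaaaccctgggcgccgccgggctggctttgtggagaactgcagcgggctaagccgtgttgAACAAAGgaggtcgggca
Tead2: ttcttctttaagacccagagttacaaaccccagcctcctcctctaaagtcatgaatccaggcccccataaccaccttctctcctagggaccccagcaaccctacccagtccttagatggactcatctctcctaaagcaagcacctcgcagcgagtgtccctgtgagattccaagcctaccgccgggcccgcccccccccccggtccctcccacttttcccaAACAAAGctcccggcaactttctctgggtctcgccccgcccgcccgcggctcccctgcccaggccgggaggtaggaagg
Camta1: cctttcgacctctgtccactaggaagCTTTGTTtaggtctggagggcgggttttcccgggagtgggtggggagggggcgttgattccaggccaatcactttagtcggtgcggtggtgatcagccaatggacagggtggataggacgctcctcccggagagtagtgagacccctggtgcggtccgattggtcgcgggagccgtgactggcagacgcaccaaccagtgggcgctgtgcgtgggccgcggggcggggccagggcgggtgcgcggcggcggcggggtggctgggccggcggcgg

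In the windows shown, the motif begins at position -28 from the start site in Fblim1, 33 in Fscn1, -29 in Tead2 and -224 in Camta1. Searched on both strands, AACAAAG was in 5% of the 19806 promoters of the tested genes, in 9.84% (6 of 61) of the promoters of genes lower in dcKO and in 6.49% (5 of 77) of those of genes higher in dcKO. Promoters were in the table for 48 of the 74 lower and 59 of the 82 higher genes. The related letters AACAATG were in 3.07% of all promoters, in 1.64% of those of lower and 2.60% of those of higher genes. The AP-1 motif TGAGTCA, searched alongside, was in 4.69%, 6.56% and 6.49%. A match of letters is a description of the sequence and not a bound site.

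Lgals1, which encodes the galactoside-binding lectin galectin-1, had the lowest contrast of the 74 lower genes. Its log2 ratio was 0.20 and 1.82 in Sox11cKO and -5.88 and -6.69 in dcKO, and the Sox4cKO arrays disagreed at 3.09 and -0.86. The contrast was -7.29 ± 1.05 with an adjusted p of 0.0434 (limma), and it was lost without either dcKO array (0.205 and 0.277). The level of Lgals1 in the knockout channel was 15.57 and 12.83 in Sox11cKO and 9.43 and 8.15 in dcKO on the log2 signal scale. Its wild-type channel read 15.38 and 11.01 on the Sox11cKO arrays and 15.30 and 14.84 on the dcKO arrays. The wild-type channels thus differed by 1.88 and the knockout channels by -5.41, and the wild-type level was far from equal between the Sox11cKO arrays. Pxdn, peroxidasin of the basement membrane, had a ratio of -0.36 and -1.69 in Sox11cKO and -5.01 and -5.74 in dcKO. Its knockout channel was not well above background in dcKO. By the mean levels of its brightest probe, the ratio was at least 20.4-fold lower (contrast -4.35, adjusted p = 0.0043, limma). That bound allows only for the dim channel and did not hold for a second probe for Pxdn, whose contrast was -1.58.

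Gng2, a G protein gamma subunit, had a ratio of 1.07 and 2.49 in Sox11cKO and -3.22 and -3.02 in dcKO. Its contrast of -4.90 ± 0.50 (adjusted p = 0.0154, limma) came with a knockout channel difference of -2.71 and a wild-type channel difference of 2.19. Ror2, the Wnt5a receptor tyrosine kinase, was above background only in the wild-type channel of the dcKO arrays, at 8.19 and 8.41. No fold is given for Ror2, whose measured contrast was -2.81 with an adjusted p of 0.0103 (limma). The ligand gene Wnt5a, chosen after its values were seen, had ratios of -0.64 and -0.93 in Sox11cKO and -2.82 and -2.19 in dcKO, and the contrast of -1.72 was not called (adjusted p = 0.0616). Its wild-type channels differed by 2.25 and its knockout channels by 0.52.

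Krt18, a simple-epithelium type I keratin, gave the lowest adjusted p among the lower genes together with Akap12. Its log2 ratio was 1.15 and 1.00 in Sox11cKO, -4.57 and -3.50 in dcKO, and 1.41 and 1.77 in Sox4cKO. It was thus above wild type in both single knockouts and below it in both dcKO arrays. The contrast was -5.11 ± 0.30 with an adjusted p of 0.00338 (limma), and it remained called without any 1 of the 4 arrays. Levels in the knockout channel were 15.75 and 11.59 in Sox11cKO and 8.73 and 8.99 in dcKO. The wild-type channel read 14.60 and 10.59 on the Sox11cKO arrays and 13.29 and 12.49 on the dcKO arrays. Its means differed by 0.30, but its level was far from equal on the 2 Sox11cKO arrays. Krt8, the usual partner of Krt18, was chosen for comparison after its values were seen, and had a contrast of -1.12 ± 0.33 with an adjusted p of 0.255 (limma).

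Myl9 was one of 3 called genes, all lower, among 40 genes of actin and adhesion, the others being Fscn1 and Fblim1. The median contrast of that list was -0.56, and in 24 of the 40 genes both dcKO ratios lay below both Sox11cKO ratios (20.1% of all genes). The share of all genes includes dim genes, whereas all 40 were well above background in a channel. Without Sox11cKO replicate 1 or 2 there were 6 and 5 called members, and without dcKO replicate 1 or 2 there were 0. Calls over all genes rose and fell in the same settings. Myl9 encodes a regulatory light chain of myosin, and its ratio was 2.92 and 3.52 in Sox11cKO but -0.37 and -0.18 in dcKO. It was raised over wild type only in Sox11cKO, and the contrast was -3.50 ± 0.36 (adjusted p = 0.0154, limma). Its call was lost without either dcKO array (0.112 and 0.123). Evl, Marcksl1 and Tagln, chosen after their values were seen, had contrasts of -2.02, -2.13 and -1.65 and were not called (adjusted p = 0.0638, 0.0754 and 0.101, limma).

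Mal encodes a membrane proteolipid of apical transport vesicles. Its ratio was 0.78 and 1.17 in Sox11cKO and -2.73 and -3.44 in dcKO, a contrast of -4.06 ± 0.38 with an adjusted p of 0.0129 (limma). Akap12, a scaffold for protein kinase A, read -0.06 and -0.23 in Sox11cKO and -3.27 and -3.91 in dcKO, a contrast of -3.44 ± 0.22 with an adjusted p of 0.00338. In Akap12 the wild-type channels differed by 1.90 and the knockout channels by -1.54. Arhgap8 and the oxysterol hydroxylase gene Cyp7b1 were at least 33.9-fold and at least 14.7-fold lower by their mean levels. Their knockout channel in dcKO was not well above background, and the bounds allow only for that. The Sox11cKO ratios were 0.21 and 3.43 for Arhgap8 and 0.56 and 2.05 for Cyp7b1. Without Sox11cKO replicate 2 the contrast of Arhgap8 was -3.76. The remaining genes with the largest falls included Acvrl1, a receptor of the TGF-beta family, at -3.35, and Wfdc2, a secreted whey acidic protein domain protein, at -4.69. In both, the wild-type channels differed more (1.91 and 3.47) than the knockout channels (-1.44 and -1.22).

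A cytoskeletal and an adhesion gene outside the list of actin and adhesion genes were also called, and they were chosen for mention after their values were seen. Cotl1, which encodes a filamentous actin-binding protein, read 0.70 and 1.43 in Sox11cKO and -1.82 and -1.92 in dcKO, with a contrast of -2.93 (adjusted p = 0.0133, limma). The laminin-binding integrin gene Itga7 read 0.88 and 0.88 against -2.27 and -2.18, with a contrast of -3.11 (0.0166). Both had dcKO ratios below wild type in both arrays.

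**Figure D2:**
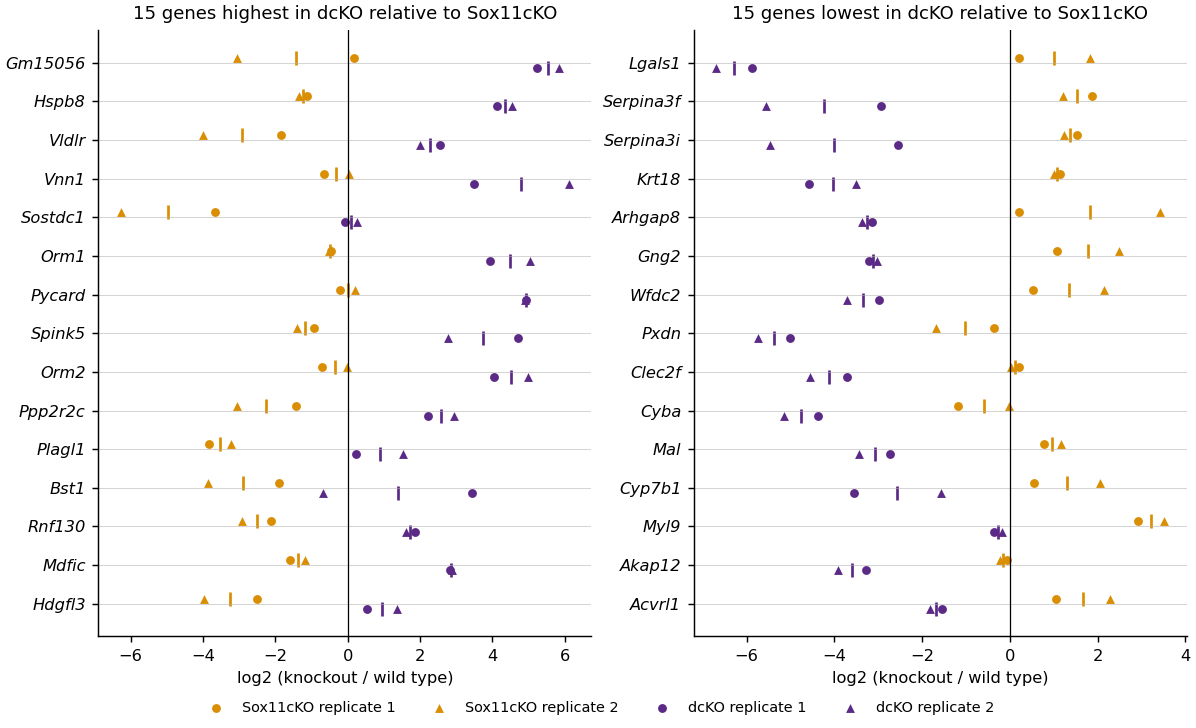
Log2 ratio of knockout over wild type in each array (points, 2 per genotype) for the 15 called genes highest and the 15 lowest in dcKO relative to Sox11cKO, with a bar at the mean. The genes were taken from called genes in which the 2 genotypes do not overlap. In Bst1 the dcKO arrays lie as far apart as 3.44 and -0.67.

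Among genes that were higher in dcKO, Pycard encodes ASC, the adaptor that links inflammasome sensors to caspase-1. Its log2 ratio was -0.20 and 0.20 in Sox11cKO and 4.94 and 4.91 in dcKO, and -0.76 and -0.17 in Sox4cKO. Of these 3 genotypes only dcKO stood above wild type, with a contrast of 4.92 ± 0.23 and an adjusted p of 0.00197 (limma). The log2 signal of the knockout channel went from 6.53 and 6.81 in Sox11cKO to 12.81 and 12.31 in dcKO, and the wild-type channel differed by 0.96. Pycard was the 1 called gene of 15 genes of the inflammasome and interleukin-1, whose median contrast was 0.23. Without Sox11cKO replicate 1 members were called in both directions, as were many more genes outside the list, and the median was 0.

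Orm1 and Orm2 encode the acute-phase glycoproteins orosomucoid, and since their sequences are near-identical their probes may share signal. The ratio of Orm1 was -0.45 and -0.51 in Sox11cKO and 3.93 and 5.03 in dcKO, and that of Orm2 was -0.72 and -0.01 against 4.04 and 4.99. Contrasts were 4.96 ± 0.29 and 4.88 ± 0.21, with adjusted p of 0.00338 and 0.00189 (limma). The knockout channels differed by 2.77 for Orm1 and 2.85 for Orm2, and the wild-type channels by -2.19 and -2.03. Vnn1, a pantetheinase of the same list, was not well above background in the Sox11cKO arrays, and its knockout channel in dcKO reached 8.68 and 12.21. In the 21 acute-phase and innate defence genes, 3 were higher (Orm1, Orm2 and Vnn1) and 2 lower (Serpina3f and Cxcl2), and the median contrast was -0.19.

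Plagl1, an imprinted zinc-finger transcription factor, had a ratio of -3.84 and -3.23 in Sox11cKO and 0.23 and 1.52 in dcKO. It was below wild type in the Sox11cKO arrays, where its knockout channel was not well above background. By the mean levels of its brightest probe, the dcKO ratio was at least 16.4-fold higher (contrast 4.41, adjusted p = 0.00338, limma). That bound allows only for the dim channel, and the 4 probes of Plagl1 disagreed, with contrasts from -0.74 to 4.41. Rnf130, a RING-domain ubiquitin ligase, read -2.12 and -2.91 in Sox11cKO and 1.85 and 1.6 in dcKO, with a contrast of 4.24 ± 0.26 (0.00338), and its 3 probes also ran from -0.32 to 4.24. By their brightest probes both genes lay below wild type in Sox11cKO. In dcKO, Rnf130 was called above wild type (1.72, adjusted p = 0.00699, limma) and Plagl1 was not (0.88, adjusted p = 0.0874).

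Vldlr, a lipoprotein receptor that also binds reelin, read -1.84 and -3.99 in Sox11cKO and 2.56 and 2.01 in dcKO, with a contrast of 5.20 ± 0.51 and an adjusted p of 0.0135 (limma). Its 2 probes gave 1.82 and 5.20. Spink5, the epidermal serine protease inhibitor LEKTI, read -0.93 and -1.41 in Sox11cKO and 4.70 and 2.78 in dcKO, a contrast of 4.91 ± 0.73 (adjusted p = 0.0466) that was lost without either dcKO array (0.167 and 0.0769). Gm15056, a predicted gene, had the highest contrast at 6.98 ± 0.87 (0.0284), from ratios of 0.17 and -3.05 in Sox11cKO and 5.23 and 5.85 in dcKO. Its call was lost without either dcKO array (0.105 and 0.23). Camta1 read -0.97 and -1.37 in Sox11cKO and 1.83 and 0.81 in dcKO, with a contrast of 2.49 ± 0.29 (0.0227).

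Ppp2r2c, a regulatory subunit of protein phosphatase 2A, and Hdgfl3, an HDGF-like protein, were at least 28.7-fold and at least 16.2-fold higher by their mean levels. The knockout channel in Sox11cKO was not well above background, and the bounds allow only for that. Their Sox11cKO ratios were -1.43 and -3.07, and -2.52 and -3.96. Without Sox11cKO replicate 2 the contrasts were 3.68 and 3.16. In Hdgfl3 the wild-type channels differed by -2.54 and the knockout channels by 1.64. Bst1, the ADP-ribosyl cyclase CD157, had a contrast of 4.26 with an adjusted p of 0.0313 (limma), but its dcKO ratios were 3.44 and -0.67. Duox1, a hydrogen peroxide-producing oxidase, and its neighbour Duoxa1, which encodes its maturation factor, were chosen after their values were seen. Duox1 read -0.56 and -0.40 in Sox11cKO and 1.53 and 1.83 in dcKO, and Duoxa1 read -0.08 and -0.92 against 1.97 and 1.74. Their contrasts were 2.16 (0.0135) and 2.35 (0.017), and in both the wild-type channel differed more (-1.46 and -1.67) than the knockout channel (0.70 and 0.69).

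**Figure D3:**
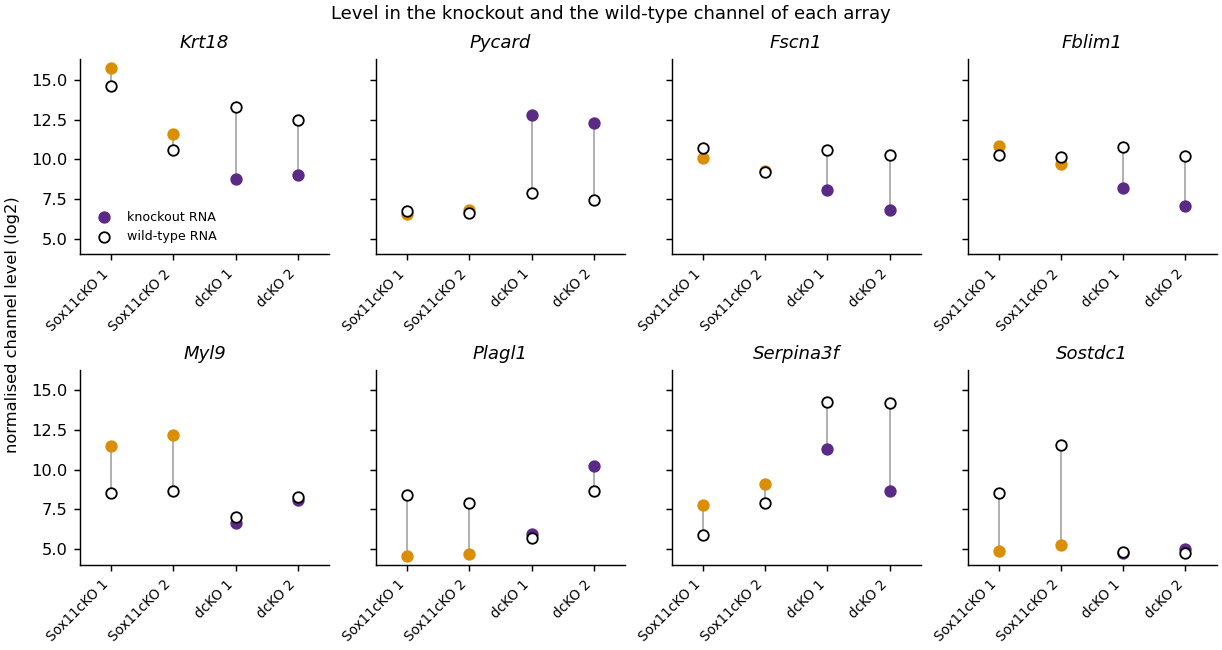
Log2 signal of the knockout channel and of the wild-type channel on each of the 4 arrays for Krt18, Pycard, Fscn1, Fblim1, Myl9, Plagl1, Serpina3f and Sostdc1. In Pycard the knockout channel rises to 12.81 and 12.31 in dcKO, whereas in Serpina3f and Sostdc1 it is the wild-type channel that differs between the genotypes' arrays.

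A contrast of ratios can come from either colour, and in 56 of the 156 called genes the wild-type channels differed more between the 2 genotypes' arrays than the knockout channels did, 34 of them among the higher and 22 among the lower genes. In the other 100 genes the knockout channels differed more. Whether the wild-type cultures account for the former was not tested. In 122 of the called genes each channel was well above background on at least 1 array of each genotype, for 19 only a lower bound of the fold can be given, and for 15 no fold.

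Serpina3f and Serpina3i, serpins of a cluster with near-identical members whose signals may be shared, were the clearest such case. The ratio of Serpina3f was 1.86 and 1.22 in Sox11cKO and -2.94 and -5.55 in dcKO (contrast -5.78 ± 0.46, adjusted p = 0.00759, limma). Its wild-type channel was 5.90 and 7.92 on the Sox11cKO arrays and 14.26 and 14.24 on the dcKO arrays, and the knockout channel was higher in dcKO by 1.56. Serpina3i had a contrast of -5.40 with a wild-type difference of 5.36. Both genes thus had their low dcKO ratios on arrays with a bright wild-type channel. A second probe gave a smaller contrast for each, -2.44 for Serpina3f and -0.97 for Serpina3i.

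Hspb8, a small heat shock protein, read -1.12 and -1.34 in Sox11cKO and 4.14 and 4.55 in dcKO. Its contrast of 5.57 ± 0.30 (adjusted p = 0.00321, limma) came with a knockout channel difference of 0.94 and a wild-type channel difference of -4.64. Mdfic, which encodes a MyoD family inhibitor domain protein, had a contrast of 4.23 with channel differences of 0.68 and -3.55. Cyba, the p22phox subunit of NADPH oxidases, had a contrast of -4.16 with a wild-type difference of 3.63. Its wild-type channel was 11.13 and 4.92 on the Sox11cKO arrays and 12.03 and 11.28 on the dcKO arrays. In Sox11cKO each of its channels was well above background on only 1 array, so that difference rests on 1 dim array. Sostdc1, a secreted BMP and Wnt antagonist of hair placodes, was above background only in the wild-type channel of the Sox11cKO arrays, at 8.54 and 11.56. Its measured ratios were -3.67 and -6.27 in Sox11cKO and -0.08 and 0.27 in dcKO, and no fold is given. The same held for Clec2f, a C-type lectin, whose wild-type channel in dcKO alone was above background, at 9.62 and 9.95.

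**Figure D4:**
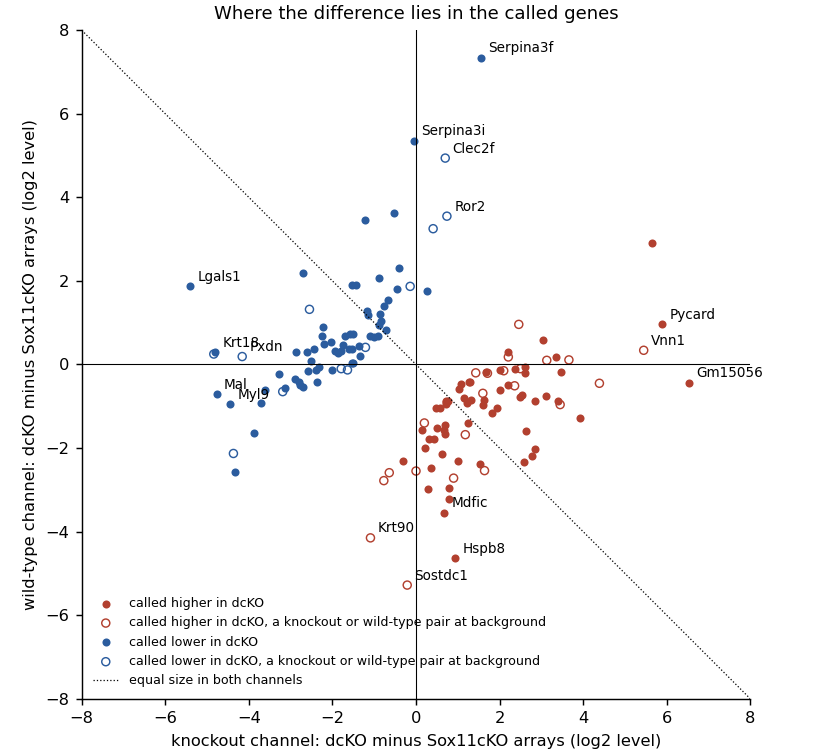
Difference between the dcKO and the Sox11cKO arrays in the knockout channel (x axis) against the wild-type channel (y axis), in log2 signal, for the 156 called genes. Open circles mark genes with a knockout or wild-type pair not well above background. In 56 genes the wild-type difference is the larger one.

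In 43 of the 156 genes (27.6%) both Sox4cKO ratios lay on the side of wild type that matched the direction of the contrast, against 22.4% of all genes, a share near the background. Of the 156 genes 7 were also called in Sox4cKO against wild type (0.137% of all genes), 5 of them in the same direction as the contrast. Among the 82 higher genes, 3 had both Sox4cKO ratios above 1 and 5 had both below -1, and among the 74 lower genes these numbers were 3 and 5. Over all genes 0.307% had both Sox4cKO ratios above 1 and 0.322% both below -1. The difference between the contrast and the Sox4cKO ratio, that is dcKO minus Sox11cKO minus Sox4cKO, was called in 119 genes (0.581%), and in 87 of the 156 called genes. This difference shares the dcKO and Sox11cKO arrays with the contrast itself, so the 2 counts are not independent. For Sox4 it was 0.14, with an adjusted p of 0.92 (limma). For Krt18 it was -6.70 and for Pycard 5.39, each with an adjusted p of 0.00243.

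Gsta3, a glutathione transferase, was called below wild type in both single knockouts and not in dcKO. Its ratio was -2.41 and -2.02 in Sox11cKO, -3.70 and -2.46 in Sox4cKO, and 0.11 and 0.69 in dcKO. It was thus near wild type where both genes were missing, with a contrast of 2.62 ± 0.26 (adjusted p = 0.0135, limma) and a difference from additivity of 5.70 (0.00243). Gstk1, another glutathione transferase, chosen after its values were seen, read -1.84 and -2.46 in Sox11cKO, -1.90 and -1.63 in Sox4cKO and 0.04 and 0.18 in dcKO, with a contrast of 2.26 (0.0239), and its wild-type channels differed by -1.58 against 0.68 in the knockout channels. Krt90, a type II keratin, read -3.41 and -2.83 in Sox11cKO, -0.46 and 0.35 in dcKO and 4.70 and 4.64 in Sox4cKO, and was not well above background in the dcKO arrays. In the list of 23 glutathione and redox genes, 1 was called higher (Gsta3) and 1 lower (Cyba), and the median contrast was 0.18.

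The other lists held 0 to 2 called members each. Without Sox11cKO replicate 1 the number called rose over all genes and not only in these lists. In 30 genes of the matrix and its assembly, 1 was lower (Pxdn) and the median contrast was -0.39, and without Sox11cKO replicate 1 there were 2 higher and 7 lower. Among 15 embryonic and simple epithelial genes, 1 was higher (Plagl1) and 1 lower (Krt18), with a median of -0.22. Among 20 interferon response genes, Sting1, the adaptor of cytosolic DNA sensing, was lower, and the median was -0.20. Its ratio was 1.38 and 2.32 in Sox11cKO and -0.51 and -0.14 in dcKO, a contrast of -2.18 ± 0.29 with an adjusted p of 0.0313 (limma). Of 18 Wnt and Ror2 genes only Ror2 was called, and of 14 hair follicle and placode genes only Sostdc1, each dim as described.

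No member was called in the lists of epidermal differentiation, the cell cycle, ETS factors and ERK feedback, the Twist, Snail and Zeb factors, matrix proteases, or proliferins. The 28 differentiation genes had a median contrast of 0.36, with 7 higher and 3 lower at an unadjusted p under 0.05 (limma). Without Sox11cKO replicate 1, 10 of them were called higher and their median was 1.20, whereas without Sox11cKO replicate 2, 2 were called lower and the median was -0.03. Casp14 and Sbsn, of the cornified layer, had the smallest p among them, with contrasts of 2.06 and 2.14 (adjusted p = 0.165 and 0.191). The 24 cell cycle genes had a median of -0.48, with 1 higher and 11 lower at an unadjusted p under 0.05, and Mcm3 and Ccnd1 at -1.15 and -1.14 (0.111 and 0.133). The 13 ETS and ERK genes had a median of -0.72, with 7 lower and 0 higher on the same measure, and the PEA3-group factors Etv4 and Etv5 at -2.55 and -1.91 were just short of the call (0.0532 and 0.0662). Without Sox11cKO replicate 1 there were 3 called lower among the ETS and ERK genes, and 1 higher and 3 lower among the cell cycle genes. Over all genes, 16.2% had an unadjusted p under 0.05. The number called over all genes also rose when either Sox11cKO array was left out.

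The list of 12 Twist, Snail and Zeb factors and mesenchymal markers also held the epithelial genes Cdh1 and Epcam. Its counts and median therefore pool both kinds of gene. At an unadjusted p under 0.05 (limma), 1 was higher and 3 lower, with a median of -0.07. Twist2 and the epithelial Epcam stood at -2.70 and -0.80 (adjusted p = 0.128 and 0.351, limma). The 16 matrix proteases and inhibitors had a median of -0.26, with 4 higher and 4 lower, and Plat and Plaur, of plasminogen activation, at 2.15 and -1.85 (0.0791 and 0.104). The 5 proliferin and prolactin-like genes had a median of 1.07 and 0 genes past that threshold in either direction, and Prl8a9 and Prl2c1 at 1.22 and 1.09 (0.535 and 0.635). Without Sox11cKO replicate 1 some members of each of these lists were called, as were many more genes outside them. The medians were then -0.09 for the Twist list, -0.21 for the proteases and inhibitors and 1.19 for the proliferin-like genes.

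**Figure D5:**
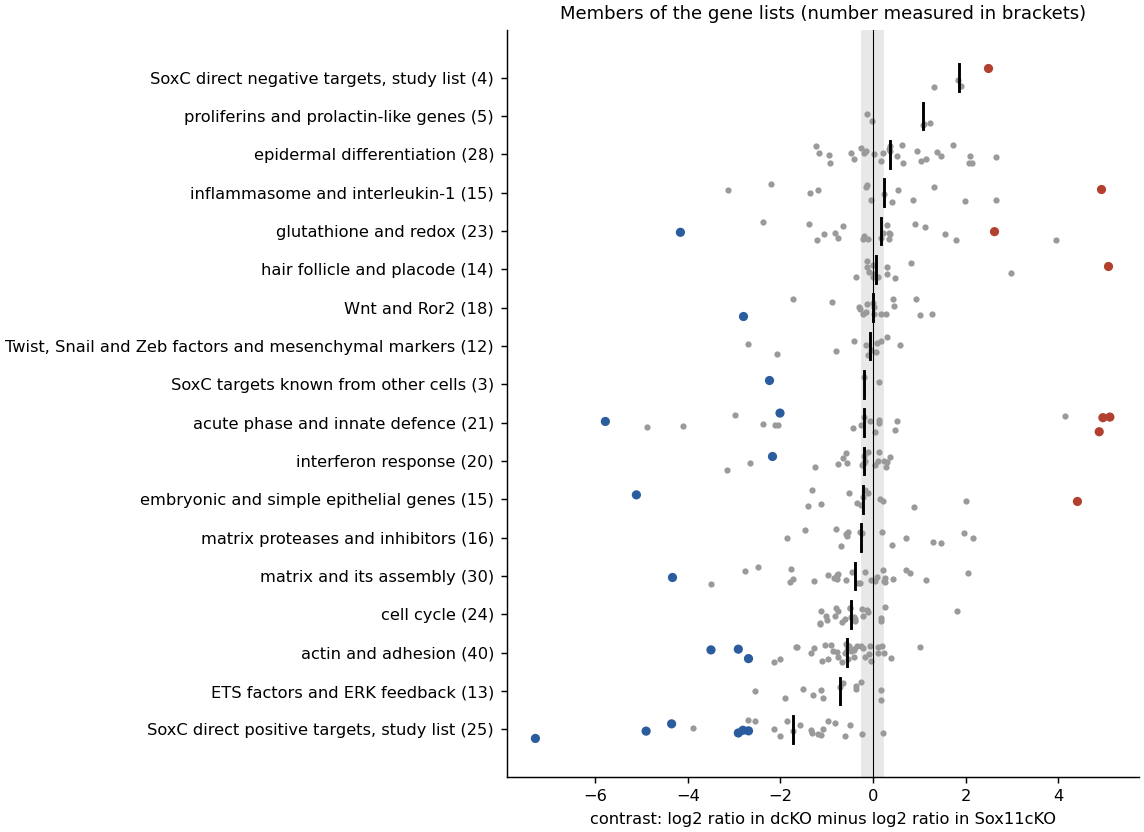
Contrast (dcKO minus Sox11cKO, log2) of each measured member of each gene list, with the median of the list as a bar, called members coloured by direction, and the quartiles of all genes as a grey band. The median of the 25 listed positive targets lies at -1.72 and that of the 40 actin and adhesion genes at -0.56, below the lower quartile of all genes at -0.25. Medians of other lists also lie below it, such as -0.72 for ETS and ERK genes, -0.48 for the cell cycle and -0.39 for the matrix. The quartiles include dim genes, whereas all members of the target and actin lists were well above background in a channel.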

How the data were processed

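RNA of knockout and wild-type control mouse keratinocytes was hybridised to 6 two-colour Agilent arrays (2 biological replicates per genotype per the labels, knockout in Cy5 on replicate 1 and in Cy3 on replicate 2). The deposited spot intensity values are medians of red and green pixels and of the local background, extracted by the authors with Feature Extraction 11.0.1.1. The authors also deposited a log2 ratio table, made by normexp with an offset of 16, loess and removal of the dye effect, whose direction on each of the 6 arrays is knockout relative to wild type (r 0.89 to 0.952 against the scanner values). The log10 ratios that the deposited files also hold were used only to check the direction of the ratios. The processed intensity columns that the authors deposited, already background-subtracted and dye-normalised, served as an alternative.

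The median signals were corrected with normexp (offset 16) and normalised by loess within arrays in limma 3.58.1 (R 4.3.3), with control spots (3671 of 62976) kept out of the loess and 194 to 288 outlier spots per array left out, and spots of a probe were averaged. No spot was saturated. A linear model over all 6 arrays held the 3 genotypes and a dye term (4 parameters, 2 residual degrees of freedom, prior 5.37), with empirical Bayes moderation and Benjamini-Hochberg adjustment over 55681 probes. Of these probes 29786 carried a RefSeq accession, and 28331 were named through a table of RefSeq genes. Bounds replace folds where a channel was not well above background, and were computed per array against the higher of the lowest signal well above background and the dim probe's own signal. Where the dim probe's own signal was the higher on each array, the bound equals the measured fold. The bounds do not allow for the spread between replicates or between probes of a gene. The dye term equals the replicate number as a block, and deviations from the group means of same-numbered arrays correlated at 0.125 (Sox11cKO with dcKO), 0.316 (Sox4cKO with Sox11cKO) and 0.244 (Sox4cKO with dcKO). All arrays lay on 1 slide with 1 scan, so neither could be a batch.

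The comparison and the gene lists were chosen with earlier results of these data known. Named genes were the 15 called genes with the largest contrast in each direction, the Sox genes, and the called members of each list or, where none was called, the 2 members with the smallest p. All other genes named with values were chosen after their values were seen. Simulated data for this comparison (55584 probes) had independent normal noise, with changes put only into probes above background on all 4 arrays. Of these, 93% of changes of 2 and 100% of changes of 3 on the log2 scale were called, with 28 false calls. Recovery in dim probes was not tested. Arrays have no sequencing depth, so precision is limited by their number, 2 per genotype, and p-values measure the spread between these samples alone. The alternatives were another offset, processed signals, median centring, the deposited ratios, no dye term, dye subtracted first, the 4 arrays alone, a filter on dim probes, separate channels, outlier spots kept, and each array left out.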

Additional observations from a re-analysis of the deposited data

Results flagged for a closer look

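For 47 of the 111 genes followed over the alternatives, the step from Sox11cKO to dcKO differed from the Sox4cKO ratio by more than 1.5 in the linear model across all probes (limma, adjusted p from 0.00243 to 0.049), so that the ratio in dcKO departed from the sum of the 2 single knockouts. Over all 20499 genes 119 departed in this way (0.581%). The 111 genes were chosen partly for a large contrast, which shares the dcKO and Sox11cKO arrays with the departure. Their share is therefore not independent of that choice. The departure (log2) was positive for Gm15056 at 9.32, Gpx2 at 7.64, Hspb8 at 6.59, Sostdc1 at 5.77, Gsta3 at 5.70, Orm1 at 5.68, Orm2 at 5.66, Mdfic at 5.57, Vldlr at 5.57, Ppp2r2c at 5.56, Tmem45a at 5.42, Pycard at 5.39, Vnn1 at 5.32, Hdgfl3 at 5.31, Cwh43 at 4.21, Gstk1 at 4.02, Plagl1 at 3.98, Nat8l at 3.70, Foxo6 at 3.43, Rnf130 at 3.21, Camta1 at 2.95, Krt15 at 2.63, Duoxa1 at 2.56 and Duox1 at 2.21. It was negative for Fblim1 at -2.30, Sigirr at -2.53, Dsg2 at -2.59, Sting1 at -2.64, Jam2 at -2.69, Fosl1 at -2.74, Ror2 at -2.79, Akap12 at -2.95, Pxdn at -2.99, Arhgef3 at -3.17, Cotl1 at -3.21, Etv5 at -3.24, Mal at -3.42, Cyp7b1 at -3.76, Itga7 at -4.02, Cyba at -4.09, Clec2f at -4.28, Irf1 at -4.39, Acvrl1 at -4.50, Serpina3f at -5.19, Wfdc2 at -5.75, Gng2 at -5.86 and Krt18 at -6.70. In Sostdc1, Clec2f, Vnn1, Ror2, Ppp2r2c, Plagl1, Hdgfl3, Pxdn and Cyp7b1 at least 1 channel was not well above background in a genotype, so that their departures depend on dim signals. Cyba was well above background on only 1 of the Sox11cKO arrays in each channel. In Hspb8, Mdfic, Hdgfl3, Sostdc1, Gpx2, Tmem45a, Cwh43, Gstk1, Krt15, Duox1, Duoxa1, Serpina3f, Cyba, Wfdc2, Acvrl1, Akap12, Clec2f, Ror2, Jam2, Fosl1 and Etv5 the wild-type channels differed more than the knockout channels. Groups of 2 arrays are too small for a search for outlying arrays.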

How the results depend on the processing

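All 156 called genes kept their direction under every alternative that gave them a value (129 genes for the filter on dim probes), and no called value changed sign. Values that were not called did: the contrast of Sox11 ran from -1.41 to 0.51 and that of Prl2c1 from -0.16 to 2.35, and the medians of some lists crossed 0 (epidermal differentiation -0.03 to 1.20, acute phase -2.09 to 0.32, glutathione and redox -0.20 to 0.41, proliferins -0.16 to 1.19, embryonic and simple epithelial -0.69 to 0.08, known targets -1.05 to 0.12, as well as Wnt and Ror2, hair follicle, Twist and matrix proteases). The number called varied widely. It was 0 (0 higher, 0 lower) with an offset of 50 and 0 (0 higher, 0 lower) from the processed signals, 589 (98 higher, 491 lower) under median centring, 317 (160 higher, 157 lower) from the deposited ratios, 74 (36 higher, 38 lower) for probes above background on all 4 arrays, and 82 (38 higher, 44 lower) for separate channels. Genes departing from additivity, 119 in the model as reported, numbered 0, 0, 858, 402, 18 and 19 under these, and 225 with the dye effect subtracted first. With no replicate block (dye left out of the model), 63 genes were called (37 higher, 26 lower) and 33 departed from additivity, and all 63 were among the 156. Leaving out 1 array at a time gave 21 to 1034 called genes, 14 to 553 higher, 7 to 481 lower, and 7 to 1267 departing from additivity. Without dcKO replicate 1 or 2 there were 51 and 21 called genes, without Sox11cKO replicate 1 or 2 there were 1034 and 308, and without either Sox4cKO array 158; without Sox4cKO replicate 1 or 2 there were 7 and 29 departures. An arm left with 1 array is assumed to vary like the others. Krt18, Nat8l, Orm1, Orm2, Pycard and Rnf130 were called in 14 of 16 alternatives. The lowest adjusted p with an offset of 50 was 0.0775, for Pycard (limma). The alternative with mean spot signals was not run, since the columns used here hold medians. Only 35.1% to 45% of probes were well above background, which limits what dim genes can show. The cause of these differences was not tested.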
